A study of Mus musculus with 12 samples.

Results

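The genes described here are 9 regulators of clotting and clot breakdown that act at the vessel wall. F3, Tfpi and Tfpi2 make up the tissue factor side, Thbd and Procr the thrombomodulin side, and Plat, Plau, Anxa2 and S100a10 the plasminogen side. They were taken by exact gene symbol, and all 9 of 9 were found among the 22180 genes with a probe set naming 1 gene only. Each of the 9 had a single probe set. The tissue was aortic vessel from female mice of the outbred CD-1 stock, each mouse on an array of its own. A group of 6 mice was injected intraperitoneally with CM-695 (80 mg/kg) both 2 h and 1 h ahead of sacrifice, and another 6 received saline as vehicle. CM-695 inhibits histone deacetylase 6 and phosphodiesterase 9. The labels give vehicle mice a single injection in one place and no number in another, so a difference in the number of injections cannot be told apart from CM-695. All mice were perfused with buffered saline before the vessel was taken and frozen. The age of the mice is not given in the sources used here.

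Tissue factor, the product of F3, is a membrane protein of adventitial and smooth muscle cells that binds factor VII when blood leaves the vessel and so starts clotting. Thrombomodulin and the endothelial protein C receptor sit on endothelium and turn thrombin from a clotting enzyme into an activator of the anticoagulant protein C. Plasminogen is converted to plasmin, which dissolves fibrin, by the tissue and urokinase activators, and annexin A2 with its partner S100A10 holds plasminogen and the tissue activator on the cell surface.

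The values are RMA log2 expression values, so a difference of 1 is a doubling. The 12 arrays had medians of 4.69 to 4.74 and pairwise correlations of 0.957 to 0.977 over 41345 probe sets. The values carry no detection call. Smooth muscle actin (Acta2, 12.86 ± 0.33 in vehicle mice, SD, n = 6) and the endothelial junction gene Cdh5 (9.22 ± 0.13, SD, n = 6) were high, as the tissue label implies. The adipocyte gene Fabp4 (12.73 ± 0.08, SD, n = 6) and the brown fat gene Ucp1 (12.61 ± 0.23, SD, n = 6) were high too. So were the heart muscle genes Actc1 (10.85 ± 0.68, SD, n = 6) and Tnnt2 (10.5 ± 0.89, SD, n = 6). In such bulk samples, fewer cells of a type and less RNA per cell cannot be told apart.

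None of the 9 regulators passed the test across all probe sets: 0 were higher and 0 lower at a limma adjusted p under 0.05. Of all probe sets 0.155% passed, 0.0242% higher and 0.131% lower. In the same fit 2 of 9 had an unadjusted p under 0.05, where 9.10% of all genes did. Anxa2 was the one above 0 and F3 the one below 0. Of all genes, 4.96% had such a p with a difference above 0 and 4.14% with one below 0. Differences of CM-695 minus vehicle were above 0 for 4 members and below 0 for 5, with a median of -0.04 log2, where the median over all genes was 0.02 and 55.3% of genes were above 0. The members at the ends of that range were Anxa2, at 0.53, and F3, at -0.26.

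**Figure D1:**
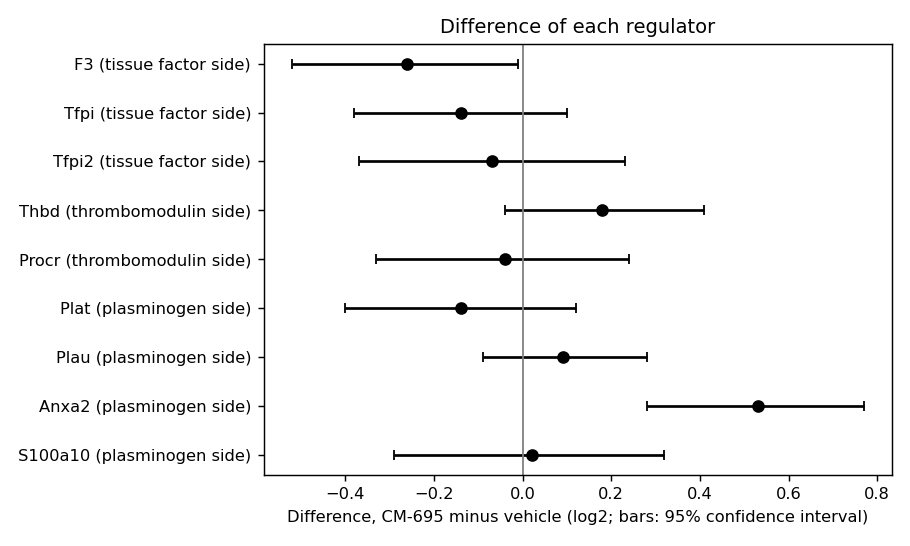
Differences of CM-695 minus vehicle on the log2 scale (x axis) for the 9 regulators (y axis), with limma's 95% confidence interval over 6 mice per group. The interval of Anxa2 runs from 0.28 to 0.77 and that of F3 from -0.52 to -0.01; the other 7 include 0.

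Promoter sequences of those 2 genes are shown because they stood at opposite ends of the list. They come from RefSeq on GRCm38.p6 and cover the 250 bases before the annotated start, 5′ to 3′ on the strand of the gene, at chr3:121723287-121723536 (plus strand) for F3 and chr9:69453433-69453682 (plus strand) for Anxa2. Capitals mark CACCC or its reverse complement GGGTG, the core that KLF transcription factors are known to bind.
F3: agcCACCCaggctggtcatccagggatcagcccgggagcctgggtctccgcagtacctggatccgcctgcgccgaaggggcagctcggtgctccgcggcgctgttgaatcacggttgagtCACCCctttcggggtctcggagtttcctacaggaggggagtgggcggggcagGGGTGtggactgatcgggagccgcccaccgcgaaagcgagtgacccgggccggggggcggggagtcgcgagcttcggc
Anxa2: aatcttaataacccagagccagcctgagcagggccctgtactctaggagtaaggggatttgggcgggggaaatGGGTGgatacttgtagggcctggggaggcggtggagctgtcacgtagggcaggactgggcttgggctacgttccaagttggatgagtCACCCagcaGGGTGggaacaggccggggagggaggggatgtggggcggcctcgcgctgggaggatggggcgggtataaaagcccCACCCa
The F3 window held 3 such matches and the Anxa2 window 4, and 52.0% of 32851 mouse promoter windows of the same length held at least 1. Neither window held the heat shock element GAANNTTC, found in 6.7% of all windows, or the E-box CACGTG, found in 6.0%. Of the other members, Tfpi, Tfpi2 and Procr had windows in the table, and Thbd, Plat, Plau and S100a10 had none. A single heat shock element lay in 1 of the 3 Tfpi2 windows. These are matches of letters and say nothing about binding.

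On the tissue factor side, F3 measured 7.45, 7.57, 7.76, 7.84, 7.60 and 7.64 in vehicle mice 1 to 6 and 7.24, 7.79, 7.32, 7.16, 7.53 and 7.23 in CM-695 mice 1 to 6. CM-695 mice 1, 3, 4 and 6 lay below every vehicle mouse, mouse 5 lay within the vehicle range, and mouse 2 was higher than all vehicle mice but 1. The means were 7.64 ± 0.14 after vehicle and 7.38 ± 0.24 after CM-695 (SD, n = 6 each). CM-695 minus vehicle was thus -0.26 (SE 0.12), or 1.20-fold lower, which did not pass over all probe sets (limma adjusted p = 0.523), and the exact two-sided permutation test of this gene alone gave an unadjusted p = 0.0455. Without CM-695 mouse 2 the difference was -0.35 (SE 0.10, adjusted p = 0.231), which also did not pass.

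F3 moved with the fibroblast markers. The mean of 9 fibroblast markers per mouse ran from 8.77 to 9.61 in vehicle mice and from 8.55 to 9.09 in CM-695 mice, and 9 of 9 of these markers were below 0 in the comparison, with a median of -0.46, though 0 passed over all probe sets. All 9 lay above the median of the array, among them decorin (Dcn) and type I collagen (Col1a1). Over the 12 mice, F3 and the marker mean had Pearson's r = 0.83 and Spearman's rho = 0.84. Within groups r was 0.94 in vehicle and 0.67 in CM-695 mice, and over all mice but the 2 farthest from the median marker mean, vehicle mice 3 and 4, it was 0.73. Among CM-695 mice, mouse 2 was highest in both (F3 7.79, fibroblast mean 9.09). Mouse 4 had the lowest F3, 7.16, at a fibroblast mean of 8.94, and r without mouse 2 was not computed. The relation of F3 to these markers was picked after its value was seen, from 90 between the 9 members and 10 marker lists, and shared array effects enter both measures. With the fibroblast mean as a covariate, a fit chosen after the data had been seen, the difference of F3 was -0.04 (SE 0.13, limma adjusted p = 0.966). The fibroblast mean itself differed by -0.43 between the groups, so treatment and make-up cannot be told apart in this fit. F3 also ran against the adipocyte markers (r = -0.73, rho = -0.71, and r = -0.60 without CM-695 mice 2 and 4), and with their mean as a covariate its difference was -0.19 (SE 0.098). Against the smooth muscle markers r was 0.59 (0.58 in vehicle and 0.59 in CM-695 mice), and 0.33 without CM-695 mouse 2 and vehicle mouse 4. CM-695 mouse 2 had the highest smooth muscle mean of the 12, at 10.59. These 2 relations too were picked from the 90 after their values were seen.

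**Figure D2:**
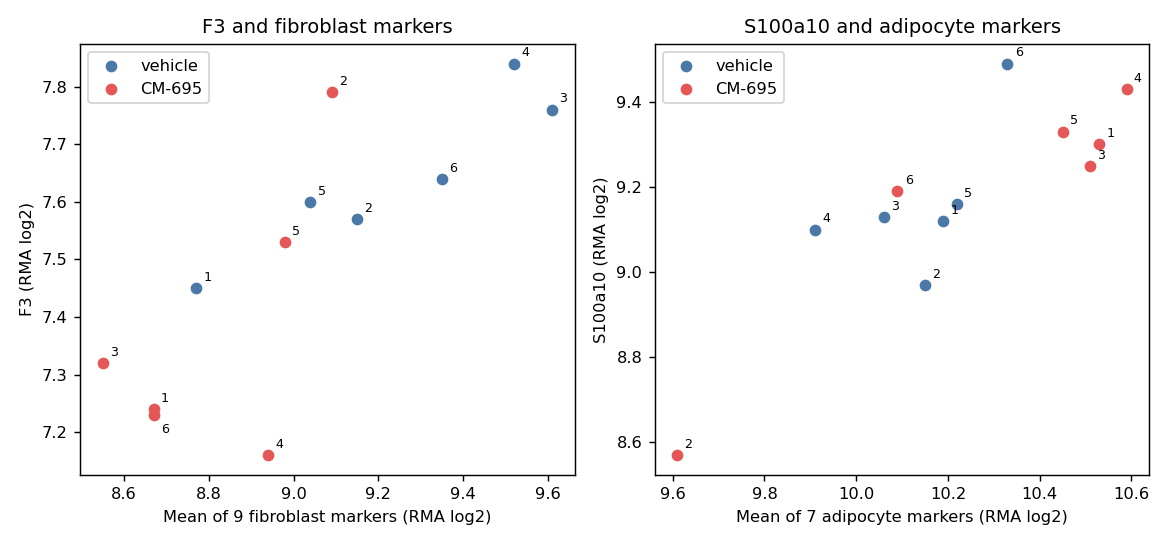
Left, F3 (y axis) against the mean of 9 fibroblast markers (x axis); right, S100a10 (y axis) against the mean of 7 adipocyte markers (x axis), all as RMA log2 values, 1 point per mouse with its number. F3 rises with the fibroblast markers among vehicle mice and less evenly among CM-695 mice. There, mouse 2 is highest in both and mouse 4 has the lowest F3, 7.16, at a fibroblast mean of 8.94. For S100a10, CM-695 mouse 2 stands alone at the lower left with 8.57.

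The inhibitors of tissue factor showed smaller differences. Tfpi encodes tissue factor pathway inhibitor, which blocks the complex of tissue factor with factor VIIa through factor Xa. It measured 5.62, 5.74, 5.92, 5.84, 6.01 and 6.26 in vehicle mice 1 to 6 and 5.64, 5.76, 5.62, 5.72, 5.84 and 5.96 in CM-695 mice. The groups overlapped, and 5 of 6 CM-695 mice lay below the vehicle mean, which gave -0.14 for CM-695 minus vehicle (SE 0.11; 95% interval -0.38 to 0.10; limma adjusted p = 0.743). Vehicle mouse 6 was the highest of all 12, and without it the difference was -0.07. With the fibroblast mean as a covariate it was -0.03 (SE 0.15). Tfpi2 encodes a related matrix-bound inhibitor of plasmin and other proteases, with weak action on tissue factor. It ran from 4.10 to 4.77 in vehicle mice and from 4.14 to 4.73 in CM-695 mice, nearly the same range, with a difference of -0.07 (SE 0.14). Its mean over all mice, 4.46, was below 4.70, the median of all probe sets, and without a detection call it is not known whether this gene was above background.

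On the thrombomodulin side, Thbd, the gene for thrombomodulin, measured 6.95, 7.14, 7.14, 7.14, 7.13 and 7.09 in vehicle mice and 7.58, 7.03, 7.46, 7.20, 7.08 and 7.33 in CM-695 mice 1 to 6. Vehicle mice 2 to 6 sat close together, while the CM-695 mice spread out, with mice 1, 3, 4 and 6 above every vehicle mouse and mice 2 and 5 inside the vehicle range. The means were 7.10 ± 0.077 and 7.28 ± 0.22 (SD, n = 6 each). They differed by 0.18 (SE 0.10; 95% interval -0.04 to 0.41), which did not pass (limma adjusted p = 0.622; exact permutation test, unadjusted p = 0.0801). The 4 CM-695 mice with Thbd above the vehicle range were the same mice that had F3 below it. Leaving out CM-695 mouse 1, the highest, gave 0.12, and leaving out CM-695 mouse 2, the lowest, gave 0.24.

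Procr, the protein C receptor gene, measured 6.10, 6.56, 6.80, 6.87, 6.74 and 6.58 in vehicle mice and 6.32, 6.81, 6.53, 6.51, 6.61 and 6.58 in CM-695 mice. All CM-695 values lay inside the vehicle range. The difference was -0.04 (SE 0.13; 95% interval -0.33 to 0.24; limma adjusted p = 0.947), and it turned to 0.23 (SE 0.13, adjusted p = 0.749) with the fibroblast mean as a covariate. The endothelial markers, by contrast with the fibroblast markers, had a mean of 7.44 after vehicle and 7.45 after CM-695, with ranges of 7.29 to 7.62 and 7.31 to 7.65, and 8 of 12 were above 0. With the endothelial mean as a covariate, the difference of Thbd was 0.18, and over the 10 marker means it ran from 0.12 (SE 0.14, fibroblast) to 0.25 (SE 0.14, platelet). Over 6 mice each, Thbd and the fibroblast mean had r = -0.90 among CM-695 and 0.73 among vehicle mice. Over all 12 mice r was -0.52. Vehicle mouse 1 was the lowest of its group in both measures, at 6.95 for Thbd and 8.77 for the fibroblast mean. This relation too was picked from the 90 after its value was seen, and the difference between groups was not tested.

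**Figure D3:**
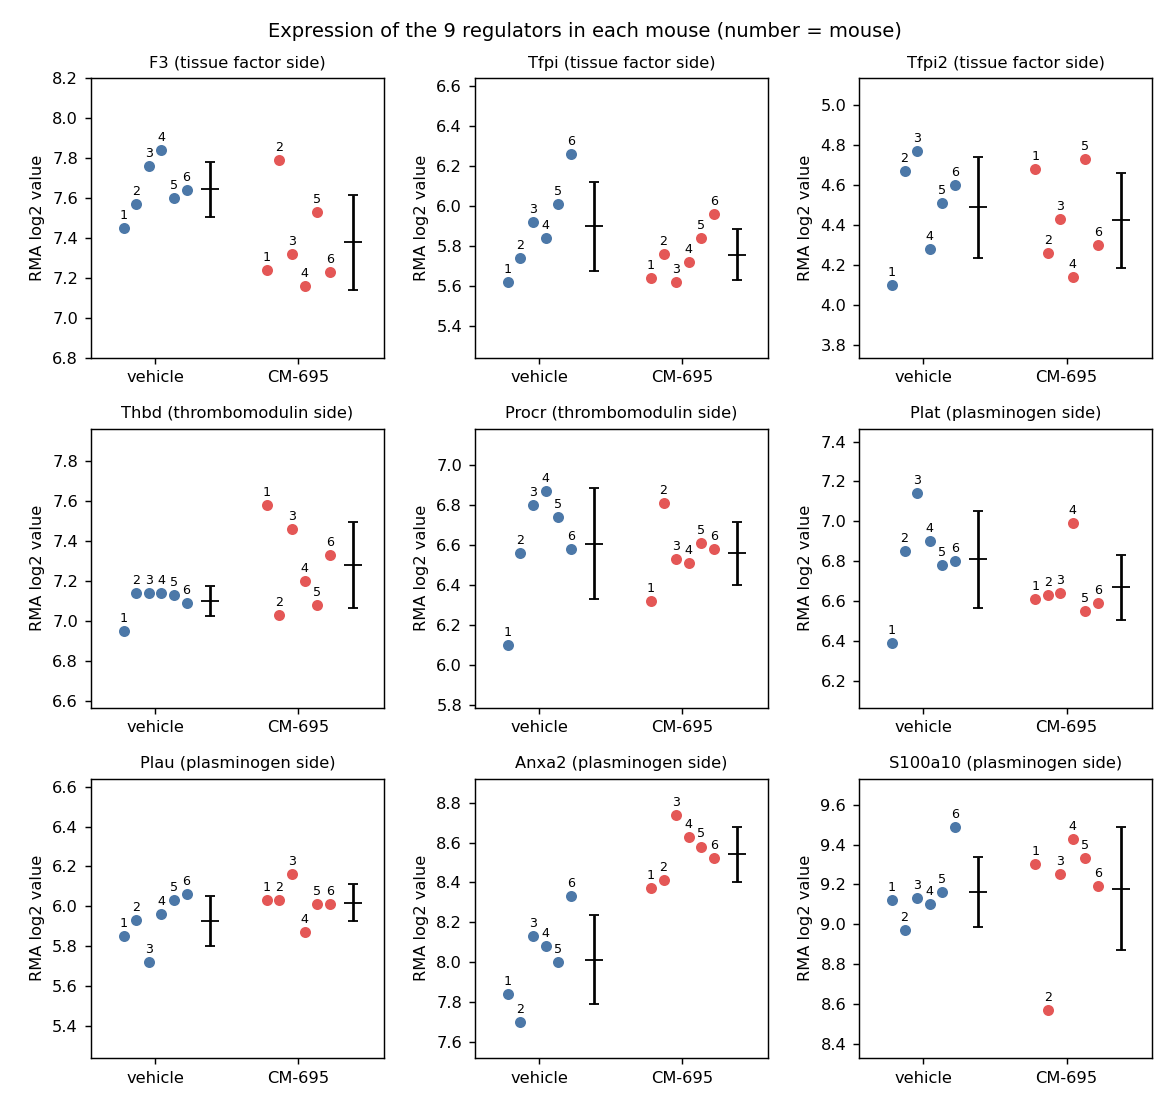
RMA log2 values (y axis) of the 9 regulators in each vehicle (blue) and CM-695 (red) mouse, numbered; each panel spans the same 1.4 log2 units, and the bars to the right of each group are mean ± SD over 6 mice. For Anxa2 the CM-695 mice, from 8.37 to 8.74, sit above all vehicle mice, which reach 8.33, and every other panel shows overlap.

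On the plasminogen side, the activators differed little. Plat, the gene for tissue plasminogen activator, measured 6.39, 6.85, 7.14, 6.90, 6.78 and 6.80 in vehicle mice and 6.61, 6.63, 6.64, 6.99, 6.55 and 6.59 in CM-695 mice. Of the CM-695 mice, 5 lay between 6.55 and 6.64, below vehicle mice 2 to 6 and above vehicle mouse 1, and mouse 4 stood apart. The difference was -0.14 (SE 0.12; 95% interval -0.40 to 0.12; limma adjusted p = 0.767), and with a marker mean as a covariate it ran from -0.28 (SE 0.16, heart muscle) to 0.08 (SE 0.14, fibroblast). Plau, the urokinase gene, ran from 5.72 to 6.06 after vehicle and from 5.87 to 6.16 after CM-695. It was the steadiest member, with a standard deviation within groups of 0.11, lower than that of all but 8.5% of genes above the median level. Its difference was 0.09 (SE 0.086, 95% interval -0.09 to 0.28, limma adjusted p = 0.785). With a marker mean as a covariate it ran from 0.04 (fibroblast) to 0.25 (SE 0.10, platelet). Plau and the platelet mean had r = -0.91 among vehicle and -0.79 among CM-695 mice, and -0.28 over all 12. This relation was picked from the 90 after its value was seen.

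Anxa2, the annexin A2 gene, was the only member whose groups did not overlap. It measured 7.84, 7.70, 8.13, 8.08, 8.0 and 8.33 in vehicle mice and 8.37, 8.41, 8.74, 8.63, 8.58 and 8.52 in CM-695 mice 1 to 6. The gap between the groups was narrow, from vehicle mouse 6 at 8.33 to CM-695 mouse 1 at 8.37. Such a separation with CM-695 on top was seen for 0.442% of all genes, and in either direction for 1.08%. The means were 8.02 ± 0.22 and 8.54 ± 0.14 (SD, n = 6 each), so that CM-695 mice were 0.53 higher (SE 0.11), or 1.44-fold. By p-value it ranked 89 among 22180 genes, and it did not pass over all probe sets (limma adjusted p = 0.113). The exact permutation test of Anxa2 alone gave an unadjusted p = 0.00216, the smallest that 924 assignments of mice can give.

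With each mouse left out in turn it ran from 0.46, without vehicle mouse 2, to 0.59, without vehicle mouse 6. With the marker mean of each of 10 cell types in turn as a covariate it ran from 0.44 (SE 0.097), for lymphocyte markers, to 0.62 (SE 0.15), for fibroblast markers. Anxa2 had its highest correlation with the lymphocyte mean (r = 0.64, rho = 0.52, and r = 0.25 without vehicle mouse 2 and CM-695 mouse 3). Within groups r was 0.80 in vehicle and 0.71 in CM-695 mice. The lymphocyte mean ran from 4.82 to 5.43 in vehicle mice and from 4.97 to 5.65 in CM-695 mice. This relation was picked from 90 after its value was seen. The limma adjusted p of Anxa2 stayed above 0.05 in all 28 alternatives tried, from 0.051 with dim probe sets left out to 0.489 with the heart muscle covariate. The heart muscle markers were themselves below 0 for 10 of 10 genes, with a median difference of -1.68, though 0 passed over all probe sets. Their means ran from 7.50 to 9.58 in vehicle mice and from 6.02 to 8.66 in CM-695 mice.

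S100a10, the gene of the partner protein that annexin A2 binds in its plasminogen-holding complex, had a difference near 0. It measured 9.12, 8.97, 9.13, 9.10, 9.16 and 9.49 in vehicle mice and 9.30, 8.57, 9.25, 9.43, 9.33 and 9.19 in CM-695 mice. CM-695 mouse 2 lay far below all others, and the other 5 CM-695 mice lay within the vehicle range. The difference was 0.02 (SE 0.14; 95% interval -0.29 to 0.32; limma adjusted p = 0.980), and without CM-695 mouse 2 it was 0.14 (SE 0.10, adjusted p = 0.635). S100a10 moved with the adipocyte markers, of which 5 of 7 were above 0 and whose mean ran from 9.91 to 10.33 in vehicle mice and from 9.61 to 10.59 in CM-695 mice. It had r = 0.85 and rho = 0.81 against this mean over 12 mice, and r = 0.64 without CM-695 mice 2 and 4. With the adipocyte mean as a covariate, also chosen after the data had been seen, the difference of S100a10 turned to -0.10 (SE 0.092, adjusted p = 0.772). Against 10 smooth muscle markers r was -0.78 (rho = -0.74), and -0.56 without CM-695 mouse 2 and vehicle mouse 4. CM-695 mouse 2 had the highest smooth muscle mean of the 12, at 10.59, and the lowest adipocyte mean, at 9.61. These relations too were picked from the 90 after their values were seen.

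Setting genes against each other within a mouse cancels what moves both alike on an array. Relative to its vehicle mean, Anxa2 exceeded S100a10 by 0.21, 0.99, 0.64, 0.34, 0.39 and 0.48 log2 in CM-695 mice 1 to 6, while in vehicle mice this contrast stayed between -0.13 and 0.15. All 6 CM-695 mice lay above all vehicle mice, as they did for Anxa2 alone. The 0.99 of CM-695 mouse 2 was made up of Anxa2 at 0.40 and S100a10 at -0.59 relative to their vehicle means. How many other pairs of genes separate the groups was not counted. Thbd against F3 gave 0.89, -0.21, 0.69, 0.59, 0.10 and 0.64 in CM-695 mice 1 to 6, against -0.15 to 0.11 in vehicle mice. Here 4 of 6 CM-695 mice lay above the vehicle range, mouse 5 lay inside it and mouse 2 below it. Anxa2 against F3 gave 0.25 to 1.09 in CM-695 mice and -0.24 to 0.32 in vehicle mice, with 5 of 6 above the vehicle range. Thbd against Procr and Plau against Plat overlapped more, with 2 of 6 CM-695 mice above the vehicle range in each. The pairs were chosen after the values of the members were known, so these contrasts carry no test.

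**Figure D4:**
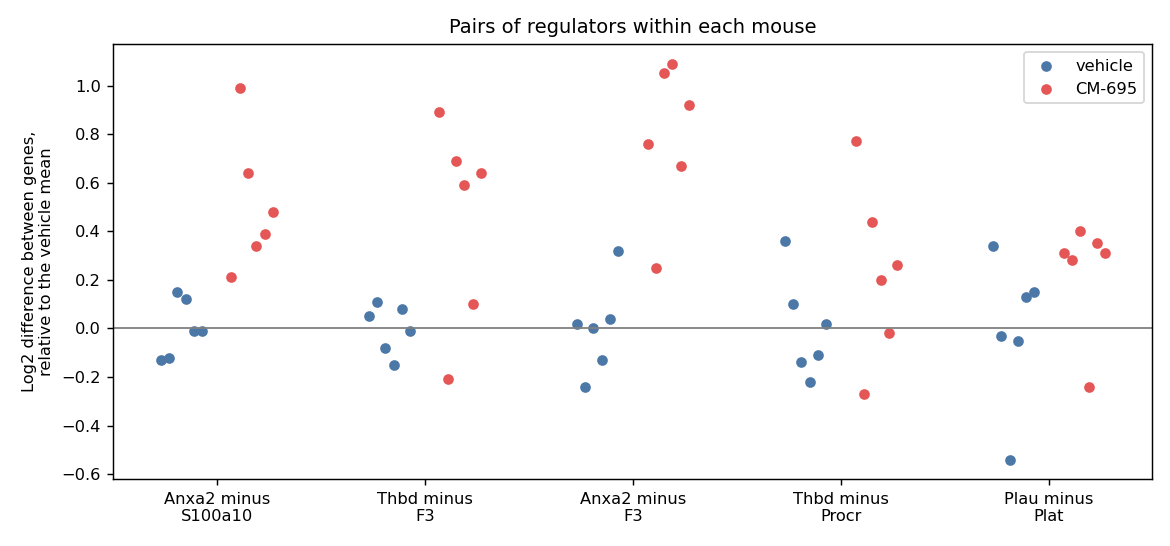
Difference in log2 value between 2 regulators within each mouse, set to a vehicle mean of 0 (y axis), for 5 pairs (x axis), with vehicle mice in blue and CM-695 mice in red. CM-695 mice lie between 0.21 and 0.99 for Anxa2 minus S100a10, above all vehicle mice, and spread from -0.21 to 0.89 for Thbd minus F3.

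Averaged by side as deviations from the vehicle mean, F3 stood at -0.26 ± 0.24, its 2 inhibitors at -0.10 ± 0.13, the 2 thrombomodulin-side genes at 0.07 ± 0.06 and the 4 plasminogen-side genes at 0.12 ± 0.11 in CM-695 mice (SD, n = 6). The spread of these averages among vehicle mice was 0.14, 0.21, 0.17 and 0.13 (SD, n = 6). Among them only F3, which is 1 gene and not an average of several, was beyond 1 vehicle SD. Taken singly, Anxa2 (0.53, vehicle SD 0.22) and Thbd (0.18, vehicle SD 0.077) were beyond it too. The plasminogen-side average came mostly from Anxa2 at 0.53, with Plau at 0.09, S100a10 at 0.02 and Plat at -0.14. The inhibitor average gave equal weight to Tfpi at -0.14 and Tfpi2 at -0.07, although Tfpi2 acts only weakly on tissue factor. It is also not known whether Tfpi2 was above background. Vehicle mouse 1 was the lowest of its group for 6 of the 9 members, F3, Tfpi, Tfpi2, Thbd, Procr and Plat, and it also had the lowest fibroblast mean of the vehicle mice, at 8.77. Without it the differences were -0.30 for F3, -0.20 for Tfpi, -0.14 for Tfpi2, 0.15 for Thbd, -0.15 for Procr and -0.22 for Plat.

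The rest of the clotting and fibrinolysis system showed no member past the threshold. Among 17 measured of 18 listed clotting factor genes, 0 passed, 13 were above 0 and the median difference was 0.14. Factor VII (F7), the clotting protease that tissue factor binds, differed by 0.24 (SE 0.091, limma adjusted p = 0.451), factor XII (F12), which starts the contact pathway, by 0.28 (SE 0.11), prothrombin (F2) by 0.28 (SE 0.17) and the fibrinogen chain gene Fgg by 0.96 (SE 0.47). Most of these are liver genes, and only 8 of the 17 exceeded the median of all probe sets. Fgg was at 2.59 ± 0.23 after vehicle and 3.55 ± 1.29 after CM-695 (SD, n = 6 each). Of the liver markers 6 of 7 were above 0 and 0 passed. The seventh, the cytochrome P450 gene Cyp2e1, was the brightest and differed by -1.50 (SE 0.45, adjusted p = 0.305), with 5 of 6 CM-695 mice below the vehicle range. The liver marker mean was highest in CM-695 mouse 5, at 7.33 against at most 6.05 in the other 11 mice. Without that mouse the median of the clotting factor list was 0.03, and among its genes above the median level it was 0.05. The part of liver RNA in it was not tested.

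Among 14 measured of 16 listed anticoagulant and thrombin receptor genes, 0 passed, 8 were above 0 and the median was 0.02. Serping1, the C1 inhibitor gene, differed by -0.34 (SE 0.15, limma adjusted p = 0.513), and Serpinc1, which encodes antithrombin, by 0.62 (SE 0.30). The thrombin receptor family genes F2rl3, which encodes PAR4 of platelets, and F2rl2, which encodes PAR3, differed by 0.30 (SE 0.13) and 0.22 (SE 0.10), both from vehicle means below the median of all probe sets. The third measured gene of this family, F2r, which encodes PAR1, was brighter, at 8.15 after vehicle, and differed by -0.50 (SE 0.27, adjusted p = 0.611); it is named after its value was seen. Platelet markers were above 0 for 6 of 7 genes in the same mice, with means of 5.36 to 5.79 after vehicle and 5.52 to 5.95 after CM-695, and their part in these values was not tested.

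Among 11 measured of 14 listed genes of the plasminogen system, 0 passed, 8 were above 0 and the median was 0.15, or 0.05 without CM-695 mouse 5. The 2 genes with the smallest p were below 0. Serpini1, which encodes neuroserpin, an inhibitor of tissue plasminogen activator, differed by -0.59 (SE 0.26, limma adjusted p = 0.525), and Lrp1, the receptor that clears plasminogen activators bound to their inhibitors, by -0.32 (SE 0.15, adjusted p = 0.538), with 4 of 6 CM-695 mice below the vehicle range. Plg, plasminogen, and Serpinf2, which encodes the plasmin inhibitor antiplasmin, are made mainly in liver and differed by 0.28 (SE 0.15) and 0.26 (SE 0.16) at low levels.

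Annexin A2 and S100A10 belong to families of calcium-binding proteins. Other genes of both families were listed as well, together with Ahnak but without Anxa5, which was in the anticoagulant list. Of 22 measured among 23 listed, 0 passed, 13 were above 0 and the median was 0.02. The member with the smallest p was S100a11, a calcium-binding partner of annexin A1, at 0.42 (SE 0.17, limma adjusted p = 0.470), with 4 of 6 CM-695 mice above the vehicle range. By p-value Anxa9 came next, at 0.20 (SE 0.13), then S100b at 0.37 (SE 0.25) and S100a3 at 0.17 (SE 0.12). The highest difference among the annexins of this list was the 0.20 of Anxa9, against 0.53 for Anxa2.

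**Figure D5:**
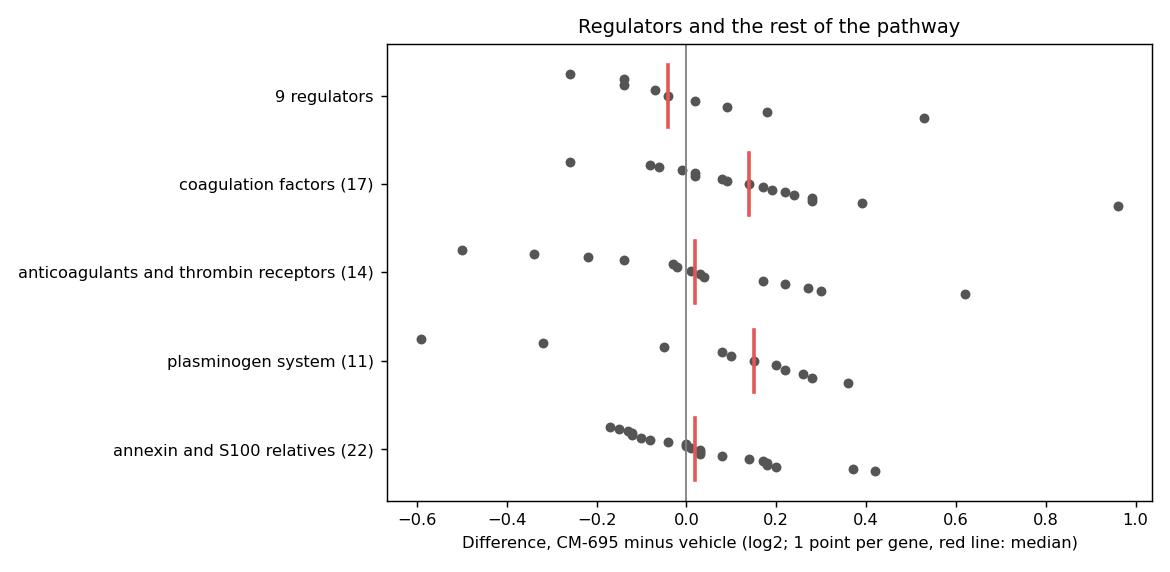
Differences of CM-695 minus vehicle on the log2 scale (x axis), 1 point per gene, for the 9 regulators and for 4 lists of related genes (y axis, number measured in brackets), with the median as a red line. Medians lie between -0.04 and 0.15, and Anxa2 at 0.53 is the rightmost regulator.

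The genes whose pattern over the 12 mice was most like that of each regulator, 2 per member among 11994 candidates (11995 for Tfpi2), had Pearson's r between 0.84 and 0.94. For F3 they were Tbc1d8b (r = 0.94) and Fhl2 (r = 0.93), the latter a LIM-domain gene of muscle that differed by -0.49 (SE 0.16, limma adjusted p = 0.333). For Anxa2 they were Cbwd1 (r = 0.90, difference 0.47, SE 0.11) and the fructose transporter gene Slc2a5 (r = 0.89, difference 1.56, SE 0.36, adjusted p = 0.140). With the mean of each group taken out, r with Anxa2 was 0.67 for Cbwd1 and 0.71 for Slc2a5. The like genes of the other members had 0.81 to 0.95 by that measure, so the group difference made up more of the likeness for Anxa2. For S100a10 they were Spcs2, a signal peptidase subunit (r = 0.93), and Ppm1a (r = 0.92). For Plat they were Rpl22 (r = 0.94) and Ppib (r = 0.92), for Procr Nup155 (r = 0.91) and Pla2g4a (r = 0.90), and for Thbd Efcc1 (r = 0.87) and Hlcs (r = 0.86). For Tfpi they were Ccdc126 (r = 0.89) and Rsph9 (r = 0.84), for Tfpi2 Igf1 (r = 0.91) and Anapc1 (r = 0.90), and for Plau Cdip1 (r = 0.86) and Pde10a (r = 0.85). Each is among the highest of very many values over shared arrays and is a description only.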

How the data were processed

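The deposited log2 values, 1 per probe set and array, came from RMA according to the submitters' processing notes; its software version is not given in the sources used here. No depth applies to arrays, and 6 mice per group limit the precision. Gene symbols came from the platform annotation, and only probe sets with 1 symbol (23521 of 41345) were used for genes, the one with the highest mean standing for a gene with several. The comparison CM-695 minus vehicle used limma (version 3.58.1, R 4.3.3; lmFit, eBayes, two-sided), with Benjamini-Hochberg adjustment over all probe sets and a threshold of 0.05. Exact permutation tests used all 924 assignments of mice. Motifs were searched on both strands. The limma test was also tried on simulated arrays of 41345 probe sets. At a 1.25-fold change its recovery was 10%, rising to 34% at 1.5-fold and 80% at 2-fold. Not passing therefore says little about differences of 1.5-fold or less, and the largest among the members, that of Anxa2, was 1.44-fold. The simulated noise was drawn separately for each probe set, so variation shared between genes was left out. The members and lists were chosen with earlier results of these data known. Named genes were the members, the 4 genes of smallest p per related list, the 2 genes most like each member, and the 2 brightest of each marker list, of which those that bear on a member are given. Alternatives were a replicate block, other scalings, weights and filters, marker covariates, and each mouse left out. Same-numbered mice did not deviate together (r from -0.10 to 0.10 over 6 pairs), so the numbers were not taken as pairs.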

Additional observations from a re-analysis of the deposited data

Results flagged for a closer look

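In 4 cases a single mouse stood apart from the other 5 of its group by a Dixon gap test, which chance meets in about 5% of groups. Thbd in vehicle mouse 1 was 6.95, with the next vehicle mouse at 7.09. Plat in CM-695 mouse 4 was 6.99, with the next CM-695 mouse at 6.64. S100a10 in vehicle mouse 6 was 9.49, with the next vehicle mouse at 9.16. S100a10 in CM-695 mouse 2 was 8.57, with the next CM-695 mouse at 9.19. The groups tested were 18, both groups for each of the 9 regulators.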

How the results depend on the processing

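No regulator passed the threshold in any of 28 alternatives. F3, Tfpi, Thbd, Plau and Anxa2 kept their direction in all of them. With the fibroblast covariate, though, F3 was -0.04, Tfpi -0.03 and Plau 0.04. Plau was 0.22 with the heart muscle covariate and 0.25 with the platelet covariate. With each mouse left out, Procr ran from -0.15 to 0.01 and S100a10 from -0.03 to 0.14, both crossing 0. Marker covariates turned S100a10 to -0.01 (heart muscle), -0.06 (smooth muscle), -0.04 (fibroblast), -0.10 (adipocyte), -0.08 (lymphocyte) and -0.01 (liver, mesothelial), Procr to 0.00 (smooth muscle), 0.02 (adipocyte) and 0.23 (fibroblast), Plat to 0.08 and Tfpi2 to 0.03 (both fibroblast); all covariates but the endothelial, smooth muscle and heart muscle ones were chosen after seeing the data, and the cause was not tested. Over all probe sets 64 passed, against 116 without dim probe sets, where fewer are tested, 15 with the replicate block, and 39, 113, 13, 19, 36, 25 and 29 with endothelial, smooth muscle, heart muscle, fibroblast, lymphocyte, platelet and liver covariates. Leaving out a mouse gave 22 (CM-695 mouse 5) to 98 (CM-695 mouse 2). With the replicate block the difference of Anxa2 was 0.53 (SE 0.099, limma adjusted p = 0.205), and no regulator passed. Among genes above the median level, the list medians were 0.05 for clotting factors, -0.09 for anticoagulants and thrombin receptors and 0.01 for the plasminogen system. No member had a further probe set, so that alternative was not run, and Tfpi2 was too dim for the filtered fit.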

Other observations

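Among CM-695 mice, Thbd and Procr ran in opposite directions (r = -0.85 over 6 mice), while among vehicle mice they ran together (r = 0.92 over 6 mice). Thbd and F3 gave -0.69 and 0.72 in the same order. Vehicle mouse 1 was the lowest of its group for all 3 genes, and CM-695 mouse 2 had the lowest Thbd with the highest F3 and Procr of its group. These pairs were noticed among 36 and the difference between groups was not tested.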
